A study of Mus musculus with 24 samples.

Results

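The step from 4 to 8 h after activation was followed by comparing the 3 cultures harvested at 8 h (Th0, Th1 and Th2) with the 3 harvested at 4 h. Each 8 h library was paired with the 4 h library of the same culture condition, which takes 6 of the 24 libraries of the series, and the comparison ran across the 22009 named genes of the table. Of these, 5059 were at 0 in all 6 libraries. The series measured mRNA by RNA sequencing to follow how CD4+ T cells change their expression during a day of T helper differentiation. Beside the 18 cultures, from 4 to 24 h, it holds 2 libraries of resting cells and 4 libraries of cells that were stimulated for 16 h and then kept with actinomycin, which blocks transcription.

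The cells were of Wildtype genotype and C57BL/6 strain and came from adult spleen, pooled from 6 mice. CD4+ cells were taken by negative selection with magnetic beads, in which the other cells are labelled and removed. To get naive cells, the study's methods add a flow cytometric sort by CD4, CD25, CD44 and CD62L, and they state that naive cells were sequenced. The labels and the study's own figure legend for this course speak of purified CD4 cells and name no sort, and the study describes sorted naive cells for a separate course, so whether these cells were sorted is not certain. Th0 cultures received anti-CD3e and anti-CD28, which stimulate the T cell receptor and the costimulatory receptor CD28. In Th1 cultures, recombinant IL-12 was added to these agents and IL-4 was blocked by an antibody. In Th2 cultures, recombinant IL-4 was added, and antibodies blocked IL-12 and interferon-gamma (IFNG). The resting libraries carry another tag in their names than the cultures and may come from another preparation, so values at rest stand beside the others as context and were not tested. There was 1 library per condition and time point, so the 3 cultures stand in for the replicates of a time point. The spread between them holds the differences between skewing conditions, and as all cultures came from 1 pool, no p-value here measures the spread between animals.

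A resting CD4+ T cell is small and makes little RNA and protein. Signals through the T cell receptor and CD28 first switch on immediate-early transcription factors, then cytokines, chemokines and surface receptors, and then, under the transcription factor Myc, the machinery for growth: nucleoli, ribosomes, nucleotides, amino acids and mitochondria. DNA synthesis and division follow only after this growth phase, and the skewing cytokines act during it.

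Expression is given as deposited, in RPKM, which scales reads by transcript length and by the mapped reads of a library. Many low values were whole multiples of what 1 read is worth: 3564 of 4854 low values of the 4330 genes with a single transcript (73.4%) lay within 0.02 of a whole number of steps. This gave between 19474405 and 27505394 mapped reads for the 6 libraries, so that 1 read in a transcript of 2000 bases stood for 0.0182 to 0.0257 RPKM. Even numbers of steps (2157) were more common than odd ones (1407), so the reads were not independent counts and no counting interval is given. Values are listed in the order Th0, Th1, Th2 throughout.

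The Th0 library of 8 h stood apart from the other 8 h libraries. Across 10785 genes, its Pearson correlation on log2(RPKM + 0.5) was 0.980 with Th1, 0.978 with Th2 and 0.974 with Th0 at 4 h, but 0.972 with Th1 at 8 h and 0.941 with Th2 at 8 h. The Th1 library of 8 h was in turn as close to Th0 at 12 h (0.987) as to Th1 at 12 h (0.985). These values describe the libraries across genes, which are not independent replicates. The spread of the step over the genes tested was smallest in Th0, with an SD of 0.44 on the log2 scale against 0.60 in Th1 and 0.68 in Th2. From 8 to 12 h the SD was 0.50 in Th0 and 0.37 in Th1 and 0.35 in Th2. The Th0 culture moved less than the others from 4 to 8 h and more from 8 to 12 h. A difference in stimulus, in harvest, in skewing condition or in the labelling of the library cannot be told apart with 1 library.

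**Figure D1:**
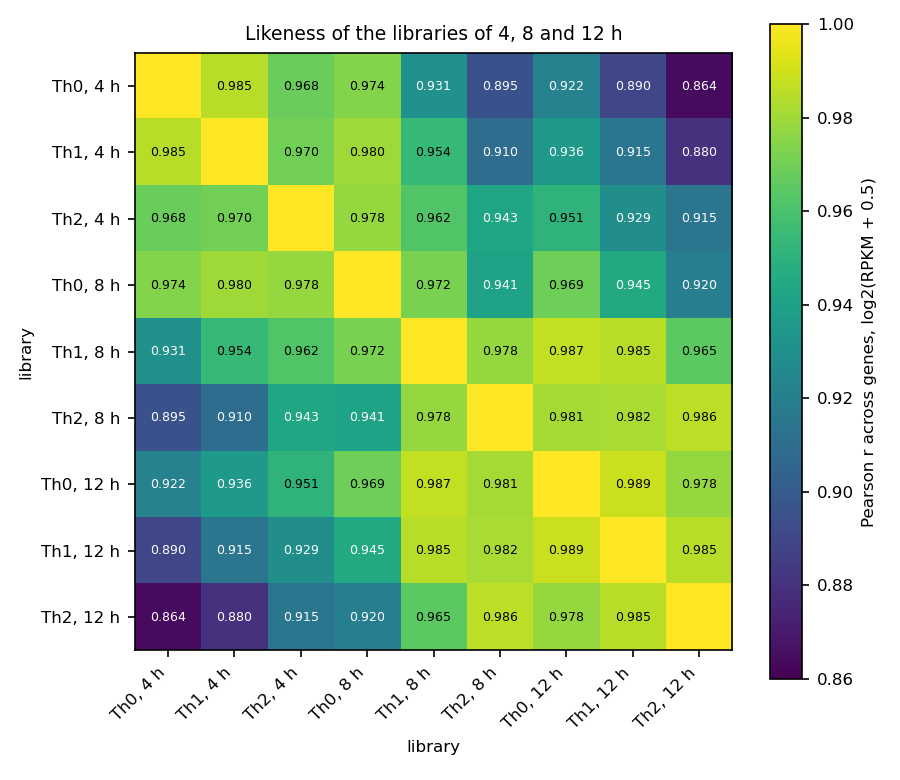
Pearson correlation across 10785 genes between the 9 libraries of 4, 8 and 12 h, on log2(RPKM + 0.5); each square is a pair of libraries. The Th0 library of 8 h is closer to Th1 at 4 h (0.980) than to Th2 at 8 h (0.941).

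Between 4 and 8 h, 324 genes rose and 236 fell among the 10870 genes that averaged 1 RPKM or more over the 6 libraries. The call required a change of at least 2-fold and an adjusted p under 0.05 (limma, with the culture condition as a block), and 5.15% of the genes passed it, 2.98% upwards and 2.17% downwards. Changes were calculated on log2(RPKM + 0.5), which understates those of low genes; on this scale the median change of all genes was -0.05. With no size required, 2654 genes passed the adjusted p. All 324 risen and all 236 fallen genes moved the same way in all 3 cultures, which the paired call by itself nearly requires. In 190 of the risen genes the lowest 8 h library lay above the highest 4 h library, and in 198 of the fallen genes the highest 8 h library lay below the lowest 4 h library. At 8 h, 245 of the risen genes (75.6%) were at least 2-fold above the mean of the resting libraries, against 7.5% of all genes tested. Of the fallen genes, 96 (40.7%) were at least 2-fold below rest at 4 h and 24 (10.2%) at least 2-fold above it, against 7.31% and 3.61% of all genes. The risen genes were chosen by their 8 h values and the fallen genes by their 4 h values, which these shares use as well.

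The count depends on the pairing and on the Th0 culture. With 4 h and 8 h as unpaired groups of 3, with no block for the culture condition, 1 gene was called (Trf, which fell), with 2638 at an unadjusted p under 0.05. Without the Th0 cultures 1037 of 10829 genes were called (540 rose and 497 fell). That fit had fewer pairs, yet 3982 genes passed the adjusted p (limma), against 2654 with all cultures. With so few pairs, the spread of a gene is taken largely from that of other genes. Counts and calls with a culture left out, here and below, thus say little of whether the remaining pairs agree. Without Th1 there were 224 rises and 258 falls, and without Th2 311 and 121, so the share of rises among the called genes, 57.9% with all cultures, was 46.5% and 72.0%. With median-of-ratios scaling this share was 69.2% (402 of 581). Every call of a gene below rests on the pairing, except that of Trf.

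**Figure D2:**
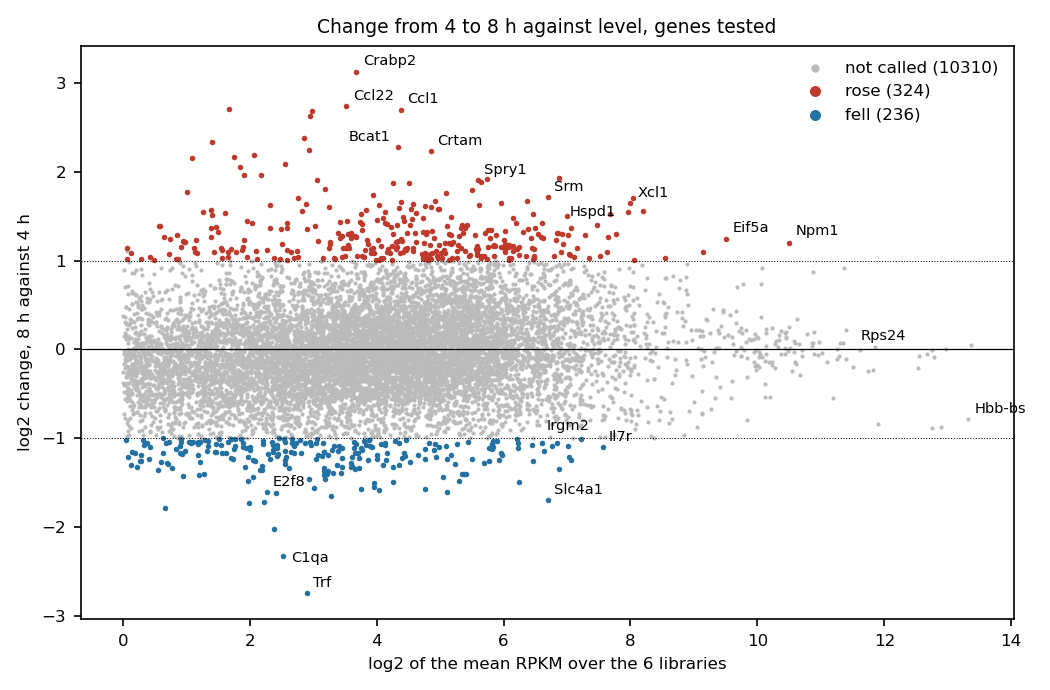
Log2 change from 4 to 8 h (vertical axis) against the log2 of the mean RPKM over the 6 libraries (horizontal axis) for the 10870 genes tested; red points rose (324), blue points fell (236) and grey points were not called. Dotted lines mark 2-fold; the highest points are Crabp2 (3.13) and Ccl22 (2.74) and the lowest is Trf (-2.74).

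The largest rise was that of Crabp2, which encodes a carrier of retinoic acid in the cell. It had 1.26, 0.77 and 2.06 RPKM at 4 h and 5.06, 11.5 and 56.3 RPKM at 8 h. All 8 h libraries lay above all 4 h libraries, Th2 far above the others, and the log2 change was 3.13 (standard error 0.40, adjusted p = 0.00122, limma). By culture, the step of Crabp2 was 1.66, 3.24 and 4.47. A larger step was that of Ccl1 in Th0 (2.53) and that of Bdh2 in Th1 (3.38), so Crabp2 did not rank first in either. Among the other 14 of the 15 largest rises, 5 were of enzymes of metabolism. Bcat1, the aminotransferase that starts the breakdown of branched-chain amino acids in the cytosol, had 2.55, 5.12 and 11.8 RPKM at 4 h and 11.8, 34.0 and 56.2 RPKM at 8 h. It rose by 2.28 (standard error 0.17, adjusted p = 0.000149, limma), although Th0 at 8 h reached the level of Th2 at 4 h. The hydroxysteroid dehydrogenase gene Akr1c18 had 0.604, 1.54 and 3.13 RPKM at 4 h and 5.54, 16.9 and 19.9 RPKM at 8 h, a log2 change of 2.68 (standard error 0.20, adjusted p = 0.000141, limma). Bdh2 (2.70), another dehydrogenase, the deoxycytidylate deaminase gene Dctd (1.96) and the carbonic anhydrase gene Car12 (1.96) were also among the 15 largest rises.

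Crtam, an adhesion receptor of activated T cells, had 5.92, 10.4 and 12.5 RPKM at 4 h and 27.3, 48.9 and 68.7 RPKM at 8 h. Resting cells had 4.37 RPKM, and all 8 h libraries lay above all 4 h libraries (log2 change 2.23, standard error 0.15, adjusted p = 9.16e-05, limma). At 12 h it had 70.6, 68.9 and 79.8 RPKM. Other large rises were of genes best known from other cells: Ncs1 (2.63), a calcium sensor of neurons, Npas4 (2.16), an activity-dependent transcription factor of neurons, Utf1 (2.05), a chromatin factor of embryonic stem cells, the RNA-editing enzyme gene Adarb1 (2.08) and the sodium-proton exchanger gene Slc9b2 (2.37). At 8 h these 5 genes had between 1.99 and 24.5 RPKM.

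The immediate-early factors, which are switched on within minutes of T cell receptor signalling, moved in both directions. Of 17 measured members 1 rose and 2 fell, and the median change was -0.21 (-0.40 without Th1 and -0.05 without Th2). Fosl1, a late partner in AP-1 dimers, had 1.59, 2.6 and 4.95 RPKM at 4 h and 5.57, 13.2 and 22.0 RPKM at 8 h, and rose by 1.91 (standard error 0.19, adjusted p = 0.00053, limma). Its relatives Fosb and Fos went the other way. Fosb had 6.49, 5.78 and 6.51 RPKM at 4 h and 1.63, 1.86 and 2.63 RPKM at 8 h, against 65.7 RPKM at rest, and fell by 1.43 on the log2 scale (adjusted p = 0.00141, limma). Fos fell by 1.27 (adjusted p = 0.000933, limma), from 28.8, 27.5 and 42.1 RPKM to 10.4, 12.4 and 17.3 RPKM. The most abundant members did not pass the test. Nr4a1, an orphan nuclear receptor gene used as a gauge of receptor signalling, had 345.0, 451.0 and 875.0 RPKM at 4 h and 303.7, 576.7 and 783.0 RPKM at 8 h. Nr4a3 had 130.3, 194.7 and 326.7 RPKM and then 112.7, 210.7 and 261.4 RPKM. The order Th0, Th1, Th2 held for both genes at both times, and all values were above those at rest (112.1 and 7.66 RPKM). Egr1 and Egr2, with log2 changes of -0.28 and 0.38, did not pass the test either (adjusted p = 0.203 and 0.0925, limma).

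Among 12 feedback inhibitors of MAP kinase signalling (phosphatases and Spry proteins), 1 rose and 1 fell; the median was 0.02, -0.01 without haemoglobin, and 0.06 to 0.13 with a culture left out. Without Th0, 3 rose. Spry1 went from 9.53, 18.5 and 29.7 RPKM to 30.8, 77.1 and 125.0 RPKM, higher in each culture, with a log2 change of 1.91 (standard error 0.16, adjusted p = 0.000181, limma). Dusp10, a phosphatase gene for the stress kinases p38 and JNK, had 95.1, 26.0 and 94.8 RPKM at 4 h and 70.1, 9.46 and 33.7 RPKM at 8 h. Its fall of 1.11 (adjusted p = 0.00487, limma) was under 2-fold without Th1 (-0.96) or without Th2 (-0.92), and Th1 was low at both times. Of 17 NF-kappaB subunits and targets, 1 fell, Tnfaip3, the gene of the inhibitor A20; the median of the list was -0.05, 0.02 with median-of-ratios scaling, 0.13 without Th0, -0.26 without Th1 and -0.12 without Th2. With median-of-ratios scaling or without Th2, 1 rose and 0 fell. Tnfaip3 went from 172.5, 111.7 and 177.6 RPKM to 91.6, 52.4 and 78.8 RPKM, all 8 h libraries below all 4 h libraries, a log2 change of -1.05 (standard error 0.15, adjusted p = 0.00152, limma); it was -0.99 with median-of-ratios scaling and -0.997 without Th2. The subunit gene Nfkb1 had 256.7, 281.9 and 417.9 RPKM and then 257.7, 471.7 and 585.4 RPKM (log2 change 0.41, adjusted p = 0.119, limma).

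Chemokine genes had a large share of rises: 5 of 11 measured rose (45.5%, against 2.98% of all genes) and 1 fell. The median change was 0.80 against -0.05 for all genes. Without Th0, 4 rose and 2 fell. Ccl22, which encodes a ligand of CCR4, had 1.82, 1.68 and 3.26 RPKM at 4 h and 12.7, 10.3 and 39.2 RPKM at 8 h, a log2 change of 2.74 (standard error 0.22, adjusted p = 0.000181, limma). Ccl1, which encodes the ligand of CCR8, had 2.45, 4.11 and 8.96 RPKM and then 16.5, 34.7 and 58.1 RPKM, a log2 change of 2.70 (standard error 0.16, adjusted p = 7.67e-05, limma). For both, the lowest 8 h library was above the highest 4 h library, Th2 was the highest culture at either time, and resting cells had 0.46 and 0.556 RPKM. The ligands made by type 1 cells and cytotoxic cells reached higher levels. Xcl1 went from 53.9, 158.0 and 165.8 RPKM to 203.4, 550.4 and 390.4 RPKM, a log2 change of 1.65 (standard error 0.17, adjusted p = 0.00068, limma). Ccl4 went from 28.6, 72.7 and 106.0 RPKM to 85.4, 240.6 and 165.6 RPKM, and here Th0 at 8 h was still below Th2 at 4 h (log2 change 1.31, standard error 0.21, adjusted p = 0.00252, limma). In both genes Th1 was the highest culture at 8 h. Ccl17 (1.26) was under 2-fold without Th0 (0.91) and with a pseudocount of 1 (0.997), and with no filter on level its adjusted p (limma) was above 0.05. Ccl5, a gene of resting memory and cytotoxic cells, fell in each culture, from 116.9, 98.9 and 117.8 RPKM to 52.7, 43.3 and 26.5 RPKM (log2 change -1.49, adjusted p = 0.00141, limma).

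Of 28 cytokine genes 3 rose (10.7%, against 2.98% of all genes), with a median change of 0.28 (0.16 without Th1 and 0.44 without Th2). Il2, the growth factor gene of activated T cells, had 7.07, 19.8 and 38.2 RPKM at 4 h and 17.7, 56.9 and 53.8 RPKM at 8 h, against 1.37 RPKM at rest. It was lowest in Th0 at both times, where the 8 h level was below that of Th1 at 4 h. The log2 change of 1.08 (standard error 0.20, adjusted p = 0.00463, limma) was 0.99 without Th0 and 0.88 without Th1, both under 2-fold. Tnfsf14, the gene of the TNF family ligand LIGHT, went from 5.72, 10.6 and 15.8 RPKM to 13.8, 29.8 and 38.6 RPKM (log2 change 1.30, standard error 0.15, adjusted p = 0.00085, limma). Il3, of the haematopoietic cytokines, went from 0.979, 2.21 and 2.27 RPKM to 2.32, 6.01 and 5.8 RPKM (log2 change 1.13, standard error 0.19, adjusted p = 0.00356, limma; 0.98 with a pseudocount of 1). Each rose in all 3 cultures. The signature cytokines of the skewing conditions were not called. Ifng had 14.9, 205.7 and 60.5 RPKM at 4 h and 19.1, 414.0 and 62.6 RPKM at 8 h, so that the Th1 culture stood far above the others at both times. Il4 had 18.7, 25.9 and 47.4 RPKM and then 9.39, 23.1 and 22.8 RPKM, a log2 change of -0.72 (adjusted p = 0.0216, limma), which is under 2-fold.

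Of 23 receptors of activated cells 3 rose (13.0%, against 2.98% of all genes), and 5 without Th0. Their median change was 0.23, and 0.38 without Th2. The costimulatory receptor gene Tnfrsf9 (4-1BB) had 69.6, 92.6 and 133.3 RPKM at 4 h and 156.1, 255.9 and 513.9 RPKM at 8 h. All 8 h values were above all 4 h values, and the log2 change was 1.52 (standard error 0.18, adjusted p = 0.000848, limma). Cd200, an inhibitory ligand, went from 23.8, 33.8 and 45.4 RPKM to 47.5, 87.6 and 102.3 RPKM (log2 change 1.17, adjusted p = 0.00124, limma). Slamf1 (1.03) was under 2-fold without Th1 (0.92), under quantile normalization (0.96) and without haemoglobin (0.99). Il2ra, the high-affinity IL-2 receptor chain, was higher in each culture at 8 h (97.8, 156.4 and 211.6 RPKM) than at 4 h (50.5, 72.8 and 117.8 RPKM). Its log2 change of 0.96 (adjusted p = 0.00223, limma) was short of 2-fold, and reached 1.02 without Th2 and 1.03 with median-of-ratios scaling.

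Among the regulators of the helper fates, the receptor gene Il12rb1 rose. It had 3.23, 5.26 and 2.8 RPKM at 4 h and 9.53, 18.6 and 15.3 RPKM at 8 h, every 8 h library above every 4 h library, with a log2 change of 1.81 (standard error 0.19, adjusted p = 0.00068, limma). It was the single rise among 13 measured Th1 regulators, whose median was -0.50 (-0.29 without Th2). Without Th0, 5 of the 13 fell. Tbx21, which encodes the Th1 factor T-bet, had 11.7, 16.5 and 9.7 RPKM and then 11, 20.2 and 8.48 RPKM, a log2 change of 0.003 (adjusted p = 0.992, limma). Stat4, which carries the IL-12 signal, had 80.4, 67.7 and 103.4 RPKM and then 80.5, 44.8 and 38.0 RPKM. Its log2 change was -0.67 (adjusted p = 0.0567, limma), and without Th0, where the values were 80.4 and 80.5 RPKM, it was past the threshold at -1.01. Ifngr1 went from 465.9, 436.8 and 367.6 RPKM to 392.7, 205.1 and 116.3 RPKM (log2 change -0.997, adjusted p = 0.0131, limma), and was called without Th0 at -1.37, with upper-quartile scaling at -1.005, under quantile normalization at -1.12 and without haemoglobin at -1.04. Of 12 Th2 regulators 0 were called by limma, with 4 at an unadjusted p under 0.05. Gata3, the factor of Th2 cells, had 30.6, 11 and 34.4 RPKM and then 16.7, 8.18 and 24.7 RPKM (log2 change -0.57, adjusted p = 0.0263, limma), lowest in Th1 at both times. Irf4, needed for the growth and differentiation of activated cells, had 118.3, 156.8 and 154.9 RPKM and then 138.7, 234.5 and 298.5 RPKM (log2 change 0.58, adjusted p = 0.0326, limma).

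**Figure D3:**
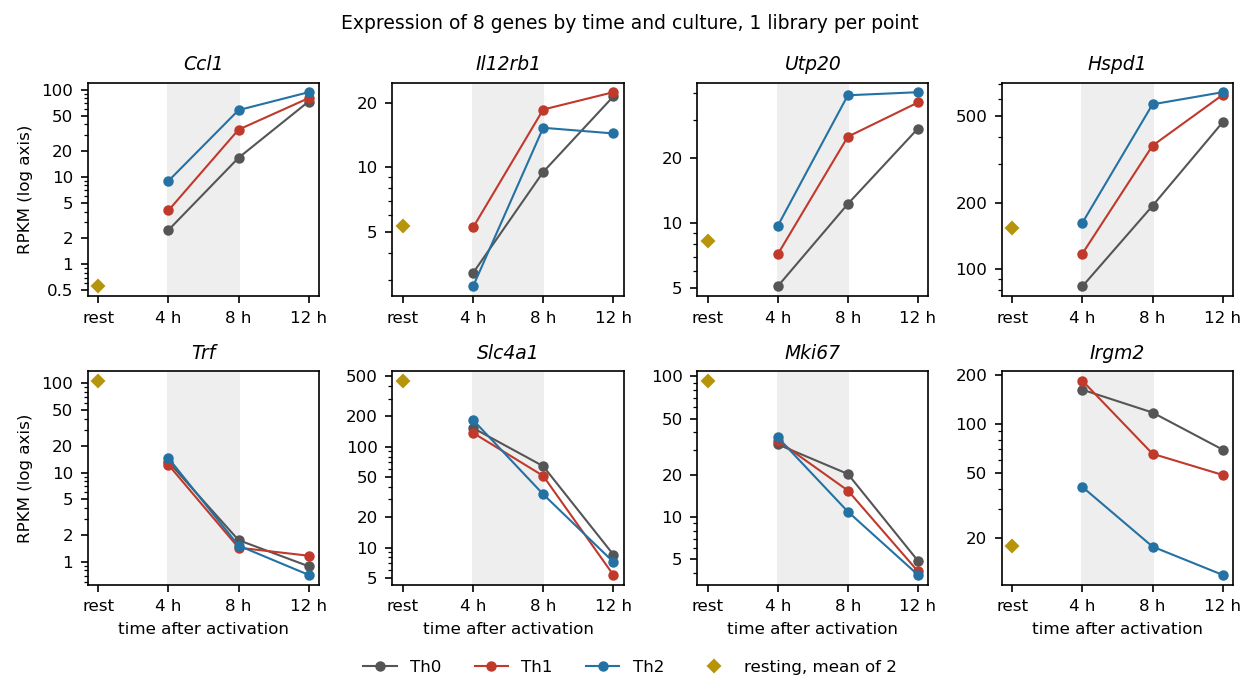
RPKM (log axis) of 8 genes at 4, 8 and 12 h, coloured by culture condition, 1 library per point, with the mean of the 2 resting libraries as a diamond; the step from 4 to 8 h is shaded. Ccl1, Il12rb1, Utp20 and Hspd1 are higher at 8 h in every culture, and Trf, Slc4a1, Mki67 and Irgm2 are lower; at 8 h the Th0 value of Utp20 (12.3 RPKM) is below that of Th2 (39.2 RPKM).

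Genes of ribosome production formed the largest group of rises. Of 63 measured genes of ribosome biogenesis, 41 rose (65.1%, against 2.98% of all genes), and all 63 had a log2 change above 0, from 0.30 to 1.63 with a median of 1.06. Without Th1, 26 of them were called. Utp20, part of the small-subunit processome, had 5.11, 7.19 and 9.73 RPKM at 4 h and 12.3, 25.2 and 39.2 RPKM at 8 h, every 8 h library above every 4 h library (log2 change 1.63, standard error 0.18, adjusted p = 0.000809, limma). Nhp2, a protein of the particles that modify ribosomal RNA, went from 26.9, 34.2 and 80.3 RPKM to 70.6, 151.3 and 168.2 RPKM, with Th0 at 8 h still below Th2 at 4 h (log2 change 1.52, adjusted p = 0.00127, limma). The most abundant member, the nucleolar protein gene Npm1, had 654.0, 862.7 and 1113 RPKM at 4 h and 1374, 2221 and 2461 RPKM at 8 h (log2 change 1.19, adjusted p = 0.00199, limma). Resting cells had 782.8 RPKM of Npm1, 8.27 RPKM of Utp20 and 34.2 RPKM of Nhp2, so at 4 h the Th0 culture was below rest for all 3 genes.

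By culture (Th0, Th1, Th2), the median of the ribosome biogenesis genes was 0.79, 1.39 and 1.04, and from 8 to 12 h it was 0.82, 0.26 and 0.09. In Th0 the change was of like size in both steps, whereas in Th1 and Th2 that of the earlier step was larger; the difference between cultures was not tested, as each has 1 library per time point. Myc, whose protein drives such genes, had 52.2, 73.1 and 157.4 RPKM at 4 h and 79.5, 199.3 and 256.6 RPKM at 8 h, against 42.1 RPKM at rest. Its log2 change of 0.92 (standard error 0.18, adjusted p = 0.00702, limma) was just short of 2-fold, and was past it without Th0 (1.07) or without Th2 (1.02). Of the 10 measured genes of the Myc network, Mxd1, a repressor that competes with Myc for its partner Max, fell. It went from 40.2, 35.5 and 46.1 RPKM to 29.7, 14.0 and 16.5 RPKM (log2 change -1.06, adjusted p = 0.00526, limma), and was under 2-fold without Th1 (-0.94), without Th2 (-0.87) and, at -0.997, with median-of-ratios scaling. Max itself had 68.2, 68.5 and 61.4 RPKM and then 66.3, 66.5 and 53.4 RPKM (log2 change -0.09, adjusted p = 0.665, limma).

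The promoters of the risen genes were read from the RefSeq table of mouse promoters (build GRCm38.p6), each 250 bases before to 50 bases after a start. A promoter was found for 265 of the 324 risen genes (81.8%) and for 8558 of the 10870 genes tested (78.7%), 288 of them through an older symbol. A set with a promoter for under 80% of its genes was taken as void. All genes tested fall just short of this, so their shares are given only beside those of all 27025 genes with a promoter, expressed or not. The E-box CACGTG, the sequence that Myc-Max dimers can bind, was in 58 of these 265 (21.9%), against 8.09% of all genes with a promoter and 12.2% of the tested genes with a promoter; the letters read the same on both strands. Among the genes of ribosome biogenesis it was in 14 of 57 (24.6%). Of other motifs, searched on both strands, the AP-1 site TGANTCA was in 6.42% of risen genes, 8.97% of all and 5.77% of tested genes, and the Egr site GCGNGGGCG in 10.2, 6.27 and 12.1%. The amino acid response element TGATGNAA was in 2.26, 4.51 and 2.66%, and the interferon-stimulated response element in 0.755, 3.99 and 3.94%. Any overlap between motifs was not removed. For the fallen genes the count is void by the same limit, as a promoter was found for 170 of 236 (72.0%). The following promoters are shown as examples of risen genes that hold the E-box, which is in capitals, and were chosen for holding it: Utp20 at chr10:88826765-88827064 (minus strand), Nme1 at chr11:93967976-93968275 (minus strand), Hspd1 at chr1:55088194-55088493 (minus strand) and Timm10 at chr2:84826771-84827070 (plus strand). A match is a description of these letters and not a measured binding site.
Utp20: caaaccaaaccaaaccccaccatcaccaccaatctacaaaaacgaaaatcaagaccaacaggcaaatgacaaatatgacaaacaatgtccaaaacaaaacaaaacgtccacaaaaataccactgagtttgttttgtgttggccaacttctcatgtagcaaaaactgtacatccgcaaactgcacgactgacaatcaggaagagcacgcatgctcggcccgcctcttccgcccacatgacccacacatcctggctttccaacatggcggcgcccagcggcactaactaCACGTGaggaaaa
Nme1: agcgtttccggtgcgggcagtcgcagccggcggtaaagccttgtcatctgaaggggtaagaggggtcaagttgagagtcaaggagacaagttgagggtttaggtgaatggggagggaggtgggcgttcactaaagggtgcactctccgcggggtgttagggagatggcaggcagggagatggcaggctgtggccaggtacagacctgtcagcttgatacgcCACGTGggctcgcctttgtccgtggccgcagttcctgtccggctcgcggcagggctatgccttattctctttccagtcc
Hspd1: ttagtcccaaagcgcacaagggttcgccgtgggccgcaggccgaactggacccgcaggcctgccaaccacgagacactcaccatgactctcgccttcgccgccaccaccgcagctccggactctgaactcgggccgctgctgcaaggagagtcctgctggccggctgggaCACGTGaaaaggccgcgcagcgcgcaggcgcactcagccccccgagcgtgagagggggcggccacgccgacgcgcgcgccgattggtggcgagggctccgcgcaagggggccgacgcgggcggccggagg
Timm10: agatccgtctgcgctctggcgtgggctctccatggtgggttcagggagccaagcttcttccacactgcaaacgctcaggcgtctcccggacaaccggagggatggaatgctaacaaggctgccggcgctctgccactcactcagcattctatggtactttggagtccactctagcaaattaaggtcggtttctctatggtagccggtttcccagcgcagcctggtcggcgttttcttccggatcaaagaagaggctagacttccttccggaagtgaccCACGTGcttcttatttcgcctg

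The genes of the ribosomal proteins themselves did not follow. Of 81 measured, 0 were called by limma (1 at an unadjusted p under 0.05), 41 of 81 had a log2 change above 0, and the median was 0.004; its sign turned with upper-quartile scaling (-0.005), quantile normalization (-0.05) and without haemoglobin (-0.04), and also without Th0 (-0.04) and without Th1 (-0.03), while it was 0.155 without Th2. Without Th0, without Th2 or with median-of-ratios scaling 1 gene of the list rose. Rps24 had 2719, 3252 and 3499 RPKM at 4 h and 3439, 3386 and 2628 RPKM at 8 h. Rplp1 had 2747, 2787 and 3867 RPKM and then 2813, 3048 and 2272 RPKM. In both, Th2 was the highest culture at 4 h and the lowest at 8 h. Mitochondrial ribosomal proteins had a median of 0.48, with 69 of 76 above 0 and 4 called: Mrps28 (1.22), Mrpl12 (1.18), Mrps6 (1.15) and Mrps18b (1.13). Without Th1 there was 1 call, and without Th0 there were 7 calls. Mrps6 had 29.0, 40.7 and 69.1 RPKM at 4 h and 58.4, 102.3 and 154.0 RPKM at 8 h (adjusted p = 0.00124, limma).

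Translation factors and enzymes that charge tRNA had most members above 0 and few past 2-fold. Of 36 initiation factors 33 had a log2 change above 0 (median 0.48) and 2 rose, 4 without Th2. Eif5a, the hypusine-bearing factor, had 298.6, 352.3 and 652.0 RPKM at 4 h and 625.2, 1097 and 1338 RPKM at 8 h (log2 change 1.25, standard error 0.18, adjusted p = 0.00184, limma). Eif2b3, of the exchange factor for eIF2, went from 6.3, 8.28 and 16.4 RPKM to 15.6, 31.4 and 33.9 RPKM (log2 change 1.38, adjusted p = 0.00141, limma). In both genes Th0 at 8 h was still below Th2 at 4 h. All 20 tRNA synthetases had a change above 0 (median 0.65), 12 of them at an adjusted p under 0.05 (limma), and 1 passed 2-fold: Farsb, from 18.1, 21.7 and 32.9 RPKM to 34.1, 61.6 and 63.3 RPKM (log2 change 1.11, adjusted p = 0.0021, limma; 0.92 without Th1). Without Th0, without Th2 or with median-of-ratios scaling there were 2 calls in the list. The polyamine gene Srm, spermidine synthase, went from 26.5, 32.4 and 88.7 RPKM to 67.9, 166.8 and 243.2 RPKM (log2 change 1.71, standard error 0.20, adjusted p = 0.000848, limma), the single call among 11 genes of that pathway. Odc1, which makes its substrate putrescine, had 206.4, 295.2 and 280.2 RPKM and then 161.6, 298.0 and 293.0 RPKM (log2 change -0.09, adjusted p = 0.705, limma).

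Of 31 genes of one-carbon and nucleotide synthesis 12 rose (38.7%, against 2.98% of all genes) and 1 fell, with a median of 0.66. Cad, which encodes the enzyme of the opening steps of pyrimidine synthesis, had 10.4, 11.3 and 20.7 RPKM at 4 h and 22.5, 50.8 and 88.3 RPKM at 8 h. All 8 h libraries lay above all 4 h libraries, and the log2 change was 1.76 (standard error 0.21, adjusted p = 0.000904, limma). The nucleoside diphosphate kinase gene Nme1 went from 22.7, 31.0 and 68.2 RPKM to 71.1, 145.0 and 156.6 RPKM (log2 change 1.68, standard error 0.19, adjusted p = 0.00084, limma). Nme2, its neighbour in the family, went from 92.5, 103.5 and 182.9 RPKM to 200.9, 345.1 and 379.8 RPKM (log2 change 1.30, adjusted p = 0.00141, limma). The fall was that of Rrm2, the S-phase subunit of ribonucleotide reductase, from 54.2, 55.4 and 65.8 RPKM to 28.2, 21.8 and 16.9 RPKM (log2 change -1.39, adjusted p = 0.00147, limma). Without Th1 7 genes of the list rose, and without Th0 13 rose and 3 fell. Of 20 genes of amino acid transport and ATF4 targets 2 rose. The serine pathway gene Psat1 went from 14.3, 19.3 and 32.8 RPKM to 31.9, 51.2 and 72.4 RPKM (log2 change 1.21, adjusted p = 0.00104, limma). The glutamine transporter gene Slc1a5 had a log2 change of 1.01 and was under 2-fold without Th1 (0.85) or Th2 (0.87), under quantile normalization (0.91) and without haemoglobin (0.97); with no filter on level its adjusted p (limma) was above 0.05. Atf4 itself had 117.8, 124.0 and 171.6 RPKM and then 128.8, 169.2 and 174.1 RPKM (log2 change 0.20, adjusted p = 0.374, limma).

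Lists of energy and lipid metabolism had shares of rises near the 2.98% of all genes. The hexokinase gene Hk2 rose from 1.91, 2.76 and 4.04 RPKM to 3.65, 10.4 and 13.2 RPKM (log2 change 1.37, standard error 0.22, adjusted p = 0.00252, limma), the single call among 29 genes of glycolysis and the pentose phosphate pathway (3.45%; median 0.31). Without Th0 there were 3 calls, and the median was 0.49. Gapdh and Ldha, the most abundant of them, had log2 changes of 0.73 and 0.81 (adjusted p = 0.0144 and 0.00807, limma), under 2-fold. Of 30 genes of cholesterol and fatty acid synthesis 1 rose (3.33%), and 2 without Th0. Their median of 0.06 was 0.008 without Th0 and 0.21 without Th2. Acaca, the rate-limiting carboxylase of fatty acid synthesis, went from 6.7, 6.45 and 6.95 RPKM to 9.57, 18.2 and 22.2 RPKM. All 8 h libraries were above all 4 h libraries (log2 change 1.17, adjusted p = 0.00487, limma), though the change was 0.96 without Th2, and with no filter on level its adjusted p (limma) was above 0.05. Of 75 subunits of oxidative phosphorylation 69 had a change above 0 (median 0.35; 0.23 without Th1) and 2 were called (2.67%), Ndufa12 (1.05) and Atp5g1 (1.01). Both were close to the threshold: Ndufa12 was at 0.95 without Th2 and 0.99 under quantile normalization, and Atp5g1 at 0.77 without Th1, 0.94 under quantile normalization, 0.97 without haemoglobin and 0.997 with upper-quartile scaling or a pseudocount of 1.

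Genes for bringing proteins into mitochondria and folding them had calls in both lists. Of 22 genes of mitochondrial import 5 rose (22.7%, against 2.98% of all genes), with a median of 0.58. There were 8 rises without Th0. The intermembrane chaperone gene Timm10 had 11.9, 12.7 and 25.4 RPKM at 4 h and 26.0, 47.7 and 52.0 RPKM at 8 h, and its partner Timm9 had 9.58, 11.1 and 20.6 RPKM and then 21.2, 35.4 and 48.1 RPKM. In both, the 8 h libraries were all above the 4 h libraries, with log2 changes of 1.33 and 1.31 (adjusted p = 0.00162 and 0.00111, limma). Timm8a1 (1.31), Tomm5 (1.25) and Tomm40 (1.05) were the other calls, and Tomm40 was under 2-fold without Th1 (0.83) or Th2 (0.93) and under quantile normalization (0.99); with no filter its adjusted p (limma) was above 0.05. Of 30 chaperonin and heat shock genes 7 rose (23.3%, against 2.98% of all genes) and 2 fell, with a median of 0.74. Hspd1 and Hspe1, which form the chaperonin of mitochondria, both rose. Hspd1 had 83.3, 117.5 and 162.5 RPKM at 4 h and 194.2, 365.6 and 564.7 RPKM at 8 h (log2 change 1.55, standard error 0.17, adjusted p = 0.00068, limma), and Hspe1 had 67.5, 88.6 and 136.6 RPKM and then 162.2, 278.7 and 332.3 RPKM (log2 change 1.40, standard error 0.16, adjusted p = 0.000809, limma). Without Th0 11 genes of the list rose, and under quantile normalization 4.

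The falls in that list were the stress-inducible genes Hspa1a and Hspa1b. Hspa1a went from 15.2, 13.1 and 19.4 RPKM to 6.7, 5.62 and 4.88 RPKM, against 219.4 RPKM at rest (log2 change -1.39, adjusted p = 0.00147, limma), and Hspa1b fell by 1.24 (-0.98 without Th2). Their constitutive relative Hspa8 had 1400, 1767 and 2283 RPKM and then 2460, 3778 and 4104 RPKM. It was under 2-fold (log2 change 0.92, adjusted p = 0.00767, limma) except under quantile normalization, where it reached 1.13. Hsp90ab1, with 1170, 1291 and 1384 RPKM and then 1538, 2432 and 3425 RPKM, was at 0.87 (adjusted p = 0.0151, limma) and at 1.11 without Th0. Of 34 proteasome subunits 33 had a change above 0, with a median of 0.55, and 0 passed 2-fold in limma, although 26 were at an unadjusted p under 0.05 and 24 at an adjusted p under 0.05. In the endoplasmic reticulum, Sdf2l1, a partner of the chaperone BiP, was the single rise among 25 genes (median 0.46; 3 rises without Th0 or with median-of-ratios scaling), from 6.0, 6.55 and 9.74 RPKM to 13.9, 19.4 and 26.4 RPKM (log2 change 1.35, standard error 0.16, adjusted p = 0.000904, limma).

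**Figure D4:**
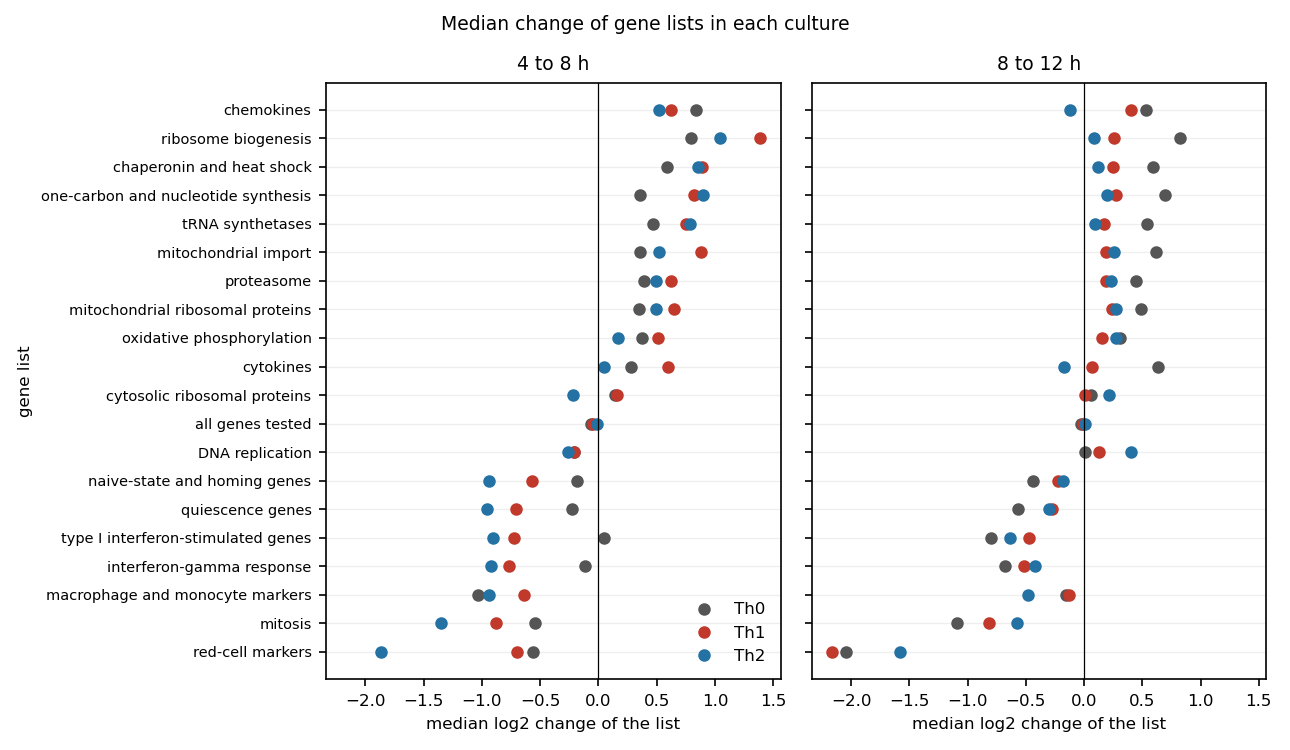
Median log2 change of 19 gene lists and of all genes tested in Th0, Th1 and Th2, for the step from 4 to 8 h (left) and from 8 to 12 h (right); each point is the median over the members tested. Ribosome biogenesis has medians of 0.79, 1.39 and 1.04 on the left and 0.82, 0.26 and 0.09 on the right; the sign of the median of the cytosolic ribosomal proteins turns with the scaling.

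Genes of cell division were lower at 8 h than at 4 h. All 33 genes of mitosis had a log2 change below 0, with a median of -0.92, and 9 of them fell (27.3%, against 2.17% of all genes). Ccna2, the cyclin gene of S phase and G2, had 27.7, 27.5 and 31.9 RPKM at 4 h and 15.4, 10.4 and 9.5 RPKM at 8 h, against 65.3 RPKM at rest (log2 change -1.29, standard error 0.18, adjusted p = 0.00172, limma). Mki67, the gene of the proliferation marker Ki-67, had 32.8, 34.9 and 36.8 RPKM and then 20.2, 15.4 and 10.9 RPKM, against 92.9 RPKM at rest. Its log2 change was -1.18 (standard error 0.20, adjusted p = 0.00307, limma), and -0.92 without Th2. For both genes the 3 cultures were alike at 4 h, all 8 h libraries were below all 4 h libraries, and Th0 kept the highest level. The number of falls in the list depended on the cultures: 20 of 33 fell without Th0, 13 without Th1 and 2 without Th2, and by scaling it was 6 with median-of-ratios scaling or quantile normalization, 11 with upper-quartile scaling and 14 with the haemoglobin genes left out. In the next step the medians of Th0, Th1 and Th2 were -1.09, -0.81 and -0.57. From 4 to 8 h they were -0.54, -0.88 and -1.35, lowest in Th2. This order was not particular to the list. It also held over all 236 fallen genes (-0.86, -1.14 and -1.60) and for the red-cell markers described below (-0.56, -0.70 and -1.86). In bulk RNA, fewer cycling T cells, fewer cycling cells of another type and less of these RNAs per cell cannot be told apart.

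Of 40 DNA replication genes 2 fell (median -0.24). Cdc6, which loads the replicative helicase, had 5.69, 5.43 and 5.83 RPKM at 4 h and 2.64, 2.32 and 2.02 RPKM at 8 h, against 15.3 RPKM at rest (log2 change -1.13, standard error 0.19, adjusted p = 0.00302, limma). The fall of Mcm10 (-1.02) was under 2-fold without Th2 (-0.72), with median-of-ratios scaling (-0.96), under quantile normalization (-0.88) and with a pseudocount of 1 (-0.86), and its adjusted p (limma) was above 0.05 with no filter. Without Th0, 1 replication gene rose and 3 fell. Pcna, the replication clamp, had 196.2, 224.1 and 303.6 RPKM and then 240.1, 320.6 and 311.1 RPKM (log2 change 0.28, adjusted p = 0.225, limma). Of 25 regulators of G1, 2 rose and 2 fell. Ccnd2, the D-type cyclin gene of activated lymphocytes, went from 48.3, 72.0 and 161.5 RPKM to 116.8, 189.5 and 272.2 RPKM (log2 change 1.14, standard error 0.17, adjusted p = 0.00195, limma). Its kinase gene Cdk4 went from 60.1, 58.5 and 94.2 RPKM to 96.1, 151.1 and 203.2 RPKM, all above the 4 h libraries (log2 change 1.05, adjusted p = 0.00278, limma), but was at 0.89 without Th1 and 0.96 under quantile normalization. Both members that fell are E2F factors. E2f8, an atypical repressor, went from 8.31, 7.0 and 7.0 RPKM to 2.99, 1.73 and 1.79 RPKM (log2 change -1.60, standard error 0.19, adjusted p = 0.000848, limma). E2f2 went from 18.2, 15.9 and 17.5 RPKM to 8.34, 7.1 and 5.31 RPKM (log2 change -1.27, adjusted p = 0.00141, limma), and resting cells had 40.8 RPKM. The median of the list was -0.56; without Th0, 3 rose and 5 fell.

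The interferon response had medians that differed between the cultures. Of 41 type I interferon-stimulated genes 2 fell, and the median was -0.62 (-0.33 without Th2); by culture (Th0, Th1, Th2) it was 0.05, -0.72 and -0.90, and in the next step -0.80, -0.47 and -0.63. Without Th0, 14 of 42 fell, and without Th2 1 of 41. Rsad2, the antiviral enzyme viperin, had 14.6, 13.7 and 15.2 RPKM at 4 h and 8.5, 6.17 and 4.76 RPKM at 8 h, all below the 4 h libraries and the resting mean of 41.5 RPKM (log2 change -1.14, standard error 0.19, adjusted p = 0.00311, limma; -0.92 without Th2). Parp14 had 122.1, 134.9 and 43.0 RPKM and then 83.5, 45.8 and 18.2 RPKM (log2 change -1.11, adjusted p = 0.00381, limma; -0.89 without Th1). The Ifitm genes had log2 changes of 0.15 (Ifitm1), -0.29 (Ifitm2) and -0.88 (Ifitm3), with adjusted p of 0.605, 0.284 and 0.0575 (limma). For Ifitm3 the values were 9.81, 12.3 and 12.5 RPKM at 4 h and 8.09, 9.76 and 2.65 RPKM at 8 h. The fall was far larger in Th2 than in Th0 and Th1. The calls made without Th0 (-1.18) or without Th1 (-1.16) thus rest on the Th2 culture.

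Of 26 GTPases and antigen presentation genes of the interferon-gamma response all 26 had a log2 change below 0, with a median of -0.64 (-0.42 without Th2), and 1 fell. The medians of Th0, Th1 and Th2 were -0.11, -0.77 and -0.92. Without Th0, 9 of 26 fell, and 2 fell under quantile normalization. Irgm2, an immunity-related GTPase, had 161.8, 183.6 and 40.9 RPKM at 4 h and 117.2, 65.4 and 17.6 RPKM at 8 h, against 17.8 RPKM at rest, so that Th0 and Th1 had been far above rest at 4 h. Its log2 change of -1.05 (standard error 0.19, adjusted p = 0.00489, limma) was under 2-fold without Th1 (-0.83), without Th2 (-0.97) or with median-of-ratios scaling (-0.98). The highest gene of the list, B2m, had 3479, 4233 and 3701 RPKM and then 4620, 3640 and 2028 RPKM, higher in Th0 and lower in the other cultures (log2 change -0.23, adjusted p = 0.541, limma). A promoter was found for 31 of the 41 type I genes and 20 of the 26 genes of the interferon-gamma list, under 80% of each, so counts of a motif are void for both. The promoters of the member with the largest fall in each list are shown, with the interferon-stimulated response element GAAANNGAAA, held by 3.99% of all genes with a promoter, in capitals: Rsad2 at chr12:26456403-26456702 (minus strand) and Irgm2 at chr11:58214727-58215026 (plus strand), both of GRCm38.p6 and from RefSeq. In Rsad2 the element lies on the other strand.
Rsad2: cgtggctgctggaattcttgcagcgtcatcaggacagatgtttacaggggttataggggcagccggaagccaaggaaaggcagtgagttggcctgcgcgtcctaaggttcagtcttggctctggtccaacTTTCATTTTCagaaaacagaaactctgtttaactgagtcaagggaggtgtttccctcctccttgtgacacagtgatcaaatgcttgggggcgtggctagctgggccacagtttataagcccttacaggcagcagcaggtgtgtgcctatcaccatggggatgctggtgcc
Irgm2: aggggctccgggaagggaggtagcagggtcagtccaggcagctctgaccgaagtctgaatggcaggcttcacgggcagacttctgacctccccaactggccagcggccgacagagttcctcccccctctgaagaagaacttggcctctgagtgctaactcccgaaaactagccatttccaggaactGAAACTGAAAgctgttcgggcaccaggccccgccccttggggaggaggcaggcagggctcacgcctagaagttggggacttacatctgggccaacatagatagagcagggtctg

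Genes of the naive state had medians further below 0 in Th1 and Th2 than in Th0. Il7r, the receptor for the survival cytokine IL-7, had 280.0, 327.3 and 133.0 RPKM at 4 h and 218.0, 132.0 and 43.0 RPKM at 8 h, and fell by 1.09 (standard error 0.22, adjusted p = 0.00701, limma). It was the single call among 21 naive-state and homing genes, and was under 2-fold without Th1 (-0.99) or without Th2 (-0.83); with no filter its adjusted p (limma) was above 0.05. The median of the list was -0.60 (-0.32 without Th2), and -0.18, -0.57 and -0.94 in Th0, Th1 and Th2. Without Th0, 4 genes of the list fell, and 3 under quantile normalization or without haemoglobin. Ms4a4b had 768.9, 703.8 and 703.6 RPKM and then 955.3, 474.7 and 266.9 RPKM, higher in Th0 and lower in Th1 and Th2 (log2 change -0.55, adjusted p = 0.157, limma). Of 19 quiescence genes, which hold resting lymphocytes out of the cycle, 0 were called by limma and 14 had an unadjusted p under 0.05. Their median was -0.61 (-0.23, -0.71 and -0.96 by culture), and without Th0 5 of them fell. Btg1 had 184.4, 267.4 and 217.1 RPKM and then 171.3, 203.4 and 144.9 RPKM (log2 change -0.36, adjusted p = 0.121, limma).

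Many of the 15 largest falls were of genes known from other cells than T cells. The E2F factor gene E2f8 (-1.60), described above, was also among the 15. Trf, transferrin, had 13.2, 12.2 and 14.5 RPKM at 4 h and 1.75, 1.44 and 1.52 RPKM at 8 h, against 106.5 RPKM at rest. The cultures were alike at each time, and the log2 change was -2.74 (standard error 0.18, adjusted p = 7.67e-05, limma). The complement genes of tissue macrophages came next. C1qa had 8.61, 6.07 and 15.3 RPKM and then 1.33, 2.1 and 1.09 RPKM (log2 change -2.32, standard error 0.31, adjusted p = 0.00133, limma). C1qb fell by 2.02 and C1qc by 1.72, and C1qa, C1qb and C1qc had 108.5, 105.6 and 96.9 RPKM at rest. Fcna, a lectin of macrophages, fell by 1.72. Lgmn, the gene of a lysosomal protease, went from 21.2, 22.7 and 17.0 RPKM to 8.64, 7.57 and 4.07 RPKM (log2 change -1.57, adjusted p = 0.000809, limma). Of 16 measured macrophage and monocyte markers 5 fell (31.2%, against 2.17% of all genes): C1qa, C1qb, C1qc, Adgre1 and Vcam1. The median over the list was -0.76. Adgre1 and Vcam1 were under 2-fold without Th0 (-0.99 and -0.91) and with a pseudocount of 1 (-0.90 and -0.88). Vcam1 was also under 2-fold with quantile normalization (-0.91). Summed over all 20 markers of the list, the level was 1274 and 1296 RPKM in the resting libraries, 169, 143 and 190 RPKM at 4 h and 108, 97.8 and 96.3 RPKM at 8 h. Ctsb, at 24.9 to 47.8 RPKM in the 6 libraries, was the highest gene except in Th2 at 8 h, where it was Hmox1, and Lyz1 was at 0 in that library.

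Red-cell genes made up most of the other large falls. Slc4a1, the anion exchanger of the red-cell membrane, had 153.4, 137.2 and 184.2 RPKM at 4 h and 64.2, 51.4 and 33.8 RPKM at 8 h, against 451.1 RPKM at rest. It fell furthest in Th2, and the log2 change was -1.70 (standard error 0.22, adjusted p = 0.00123, limma). The carbonic anhydrase gene Car1 (-1.64), the membrane skeleton gene Add2 (-1.62), the water channel gene Aqp1 (-1.60), the blood group gene Ermap (-1.58) and Hemgn (-1.57), a nuclear factor of red-cell precursors, fell likewise. Nxpe2 (-1.54) was also among the 15 largest falls. Of 11 measured red-cell markers 6 fell (54.5%, against 2.17% of all genes), 9 without Th0 and 2 without Th2. The median was -1.01, and -0.57 without Th2. The haemoglobin genes Hbb-bs and Hba-a2 were the most abundant. Hbb-bs had 11779, 10067 and 16875 RPKM at 4 h and 10419, 7119 and 5303 RPKM at 8 h (log2 change -0.78, adjusted p = 0.079, limma). Hba-a2 had 9030, 8127 and 12249 RPKM and then 7442, 5003 and 3968 RPKM (log2 change -0.87, adjusted p = 0.0425, limma; called without Th0 at -1.16). The summed level of the 11 genes was 34519, 29689 and 47522 RPKM at 4 h and 28700, 19600 and 15195 RPKM at 8 h, against 39531 and 43078 RPKM at rest, with Hbb-bs the highest gene and none at 0. The 8 haemoglobin genes of the table took 5.83, 4.99 and 7.36% of the summed RPKM at 4 h and 4.66, 3.15 and 2.51% at 8 h.

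As RPKM are shares of a library, this change moves every other gene. With the haemoglobin genes left out and the rest rescaled, 291 genes rose and 287 fell, a share of rises of 50.3%. For its skewing cultures the study's methods name a lysis of red cells before the bead selection, and the sort for naive cells after it. The part of left-over cells in the falls was not tested. Markers of T cells were present in all libraries: the 15 genes summed to 2638, 2668 and 3031 RPKM at 4 h and 2698, 3155 and 3239 RPKM at 8 h, with none at 0, and 0 of the 15 were called by limma (6 at an unadjusted p under 0.05); without Th0, 3 rose. Lck, the kinase of the T cell receptor, had 242.4, 267.5 and 322.5 RPKM and then 269.5, 338.5 and 335.4 RPKM. Cd8b1 was at 11.3, 10.0 and 11.2 RPKM and then 10.6, 6.97 and 6.34 RPKM, and Cd8a at no more than 4.51 RPKM, against 10.7 and 1.81 RPKM at rest.

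**Figure D5:**
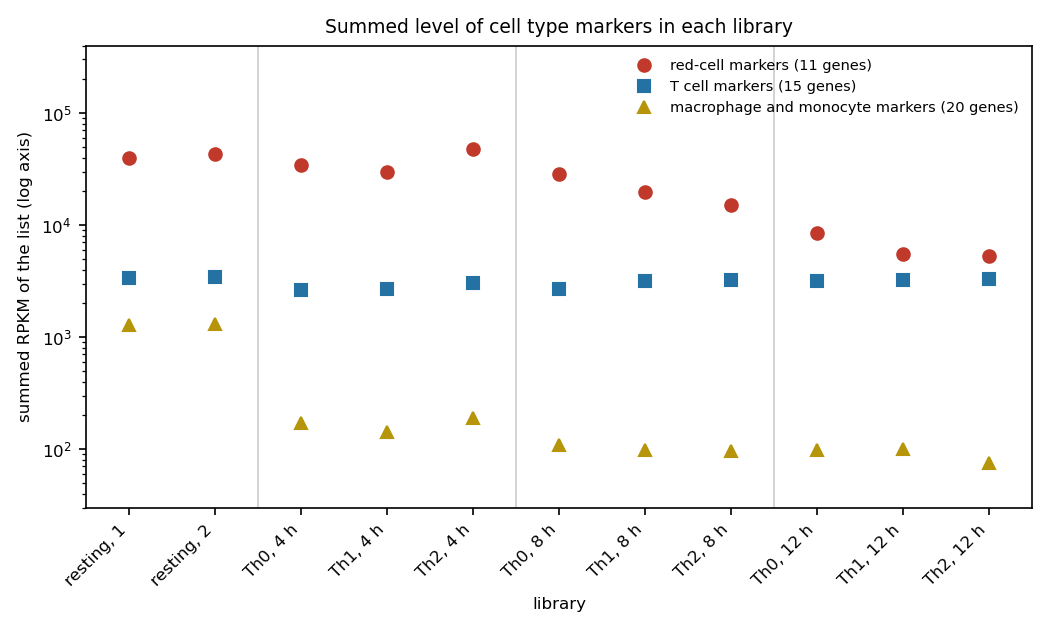
Summed RPKM (log axis) of the markers of red cells (11 genes), T cells (15 genes) and macrophages and monocytes (20 genes) in the 2 resting libraries and the cultures of 4, 8 and 12 h; each point is 1 library. The sum of the red-cell markers is between 29689 and 47522 RPKM at 4 h and between 15195 and 28700 RPKM at 8 h, and that of the T cell markers lies between 2638 and 3239 RPKM at both times.

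Each culture's own step was counted without a test, as it rests on 1 library at each time. In Th0, 174 of the 10870 genes were at least 2-fold higher at 8 h (1.6%) and 122 at least 2-fold lower (1.12%). In Th1 there were 642 (5.91%) and 337 (3.1%), and in Th2 569 (5.23%) and 902 (8.3%), so falls outnumbered rises in Th2 alone. From 8 to 12 h the order was turned: 192 genes were higher and 302 lower in Th0, 20 and 203 in Th1, and 29 and 166 in Th2. Over the 324 risen genes, the median step of Th0, Th1 and Th2 was 0.95, 1.51 and 1.28, followed by 0.92, 0.30 and 0.12 from 8 to 12 h. Over the 236 fallen genes it was -0.86, -1.14 and -1.60, followed by -1.01, -0.77 and -0.67. The members were chosen for their change between 4 and 8 h, and both steps share the 8 h libraries.

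Whether genes changed differently in this step than in the next was tested as the difference between both steps over the 9 libraries of 4, 8 and 12 h, which share the 8 h libraries. Of 10785 genes 0 were called by limma (0.0%), with 902 at an unadjusted p under 0.05 and a lowest adjusted p of 0.259. Without Th0, 82 genes were called, of which 74 had the higher value in the step from 4 to 8 h. The difference was at least 2-fold in 137 genes at any p, positive in 100 of them. The largest positive values among genes of at least 5 RPKM were those of Akr1c18 (2.30), Ccl22 (2.06), Crabp2 (1.99), Ncs1 (1.89) and Bdh2 (1.83). Akr1c18, at 5.54, 16.9 and 19.9 RPKM at 8 h, had 11.5, 16.4 and 22.5 RPKM at 12 h, so that it had levelled off in Th1 and Th2. The largest negative value was that of Trf (-2.19), which had 0.892, 1.17 and 0.714 RPKM at 12 h. C1qb (-1.62), Igfbp4 (-1.52), C1qa (-1.31), Tgfbr3 (-1.29), Gatsl3 (-1.28) and Tmsb15b2 (-1.21) followed. At 8 h Trf was already at 1.75, 1.44 and 1.52 RPKM, and C1qa at 1.33, 2.1 and 1.09 RPKM. C1qb was then at 1.52, 2.11 and 1.51 RPKM. With a pseudocount of 0.5, such levels leave these 3 genes little room for a further fall on the log2 scale. Tgfbr3, a TGF-beta co-receptor gene, had 6.73, 5.63 and 5.07 RPKM at 4 h, 6.45, 3.82 and 2.76 RPKM at 8 h and 9.08, 8.85 and 5.81 RPKM at 12 h, lowest at 8 h in each culture. None of these differences passed the adjusted p with all cultures.

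By the same paired test, the later steps of the course had fewer calls: 161 of 10648 genes from 8 to 12 h (1.51%; 19 rose and 142 fell), 28 from 12 to 16 h, 48 from 16 to 20 h and 66 from 20 to 24 h. The step from 4 to 8 h had 560, of which 324 rose. The steps share libraries with their neighbours, and the difference between these counts was not tested beyond the difference between the steps given above.

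The actinomycin libraries took no part in the step and give another readout of the same genes. Slopes of log2(RPKM + 0.1) on hours were fitted to the 4 libraries of 0, 1, 2 and 4 h, in which a slope of 0 means decay at the average rate of the library. Their culture condition is not given. For the 324 risen genes the median slope was -0.048 per hour (quartiles -0.161 and 0.046), against 0.001 for all tested genes with a slope. It was -0.076 against -0.040 without the 4 h library. The risen genes named above lay on both sides of 0, from Ccl4 (-0.447 per hour) to Npas4 (0.246 per hour). The slopes of the fallen genes are void as a group, since 158 of 236 (66.9%) had the level of at least 1 RPKM that a slope needed.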

How the data were processed

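RPKM values per gene symbol are those the authors deposited, not scaled between libraries; the processing notes name BWA and GRCm38, and the counting method is not stated. Genes averaging 1 RPKM or more over the 6 libraries were compared by limma 3.58.1 (R 4.3.3) after adding a pseudocount of 0.5 and taking log2, with a trend of variance on level, culture condition as a block and Benjamini-Hochberg adjustment. A call needed an adjusted p under 0.05 and 2-fold. The contrast of steps used 9 libraries. The procedure was also tested on simulated data. Python 3.11.15 with numpy 2.4.6, pandas 2.3.3, scipy 1.17.1 and matplotlib 3.10.9 made the summaries.

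The members and lists were chosen with earlier results of these data known. Genes were named from the 15 largest rises and falls of at least 5 RPKM, per list the 2 called members with the largest change and the 2 most abundant, 14 set names, the 8 largest and smallest differences between steps, and genes with opposite steps. Fos, Ccl17, Ccl5, Slamf1, Mrps18b, Rrm2, Tomm40, Timm8a1, Tomm5, Hspa1a, Hspa1b, Adgre1 and Vcam1 were chosen after their values were seen. Alternatives were pseudocounts of 0.1 and 1, no filter or 5 RPKM, scaling by median of ratios, upper quartile or quantiles, haemoglobin genes left out, no trend, no block, all 18 cultures, and leaving out each culture condition.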

Additional observations from a re-analysis of the deposited data

Results flagged for a closer look

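Of the genes of at least 5 RPKM, 2 were at least 2-fold up in 1 culture and at least 2-fold down in another between 4 and 8 h (6 of all genes tested). Dapl1, a gene of naive T cells, had log2 changes of 1.32 (Th0), 0.62 (Th1) and -1.12 (Th2). Its values were 4.73, 5.91 and 5.11 RPKM at 4 h and 12.5, 9.34 and 2.09 RPKM at 8 h in Th0, Th1 and Th2, against 57.6 RPKM at rest. BC147527 had log2 changes of 1.07 (Th0), -0.80 (Th1) and -1.08 (Th2), from 6.35, 7.38 and 8.99 RPKM to 13.9, 4.04 and 3.97 RPKM. Both rested on 1 library per culture and time, and the difference between cultures was not tested.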

How the results depend on the processing

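Over all alternatives, 2503 values of named genes had the sign and the call of the setting used, 171 lost the call (99 of them with no block for the culture condition), 19 gained it and 25 changed sign. The cause was not tested. With no block, 1 gene was called and the share of rises was 0.0%. With 1 culture condition left out, the count lay between 432 and 1037, the share between 46.5 and 72.0%, and the contrast of steps had 0 to 82 calls. The share was 52.4% with a pseudocount of 0.1, 63.7% with 1, 63.3% with no filter, 63.5% with 5 RPKM, 69.2% with median-of-ratios scaling, 62.9% under quantile normalization and 50.3% without haemoglobin. Median decay slopes of risen, fallen and all genes were -0.056, 0.057 and -0.004 with 5 RPKM and -0.076, -0.012 and -0.040 without the 4 h actinomycin library; those of the fallen genes are void. None of the genes whose sign changed was called. With upper-quartile scaling these were Nr4a1 (-0.005) and Tbx21 (-0.005); under quantile normalization Acly (-0.023), Nr4a1 (-0.034) and Rps24 (0.098); with median-of-ratios scaling Rps24 (0.063) and Zfp36l1 (0.054); and without haemoglobin Nr4a1 (-0.036) and Tbx21 (-0.035). With a culture condition left out, the lowest and highest values were -0.035 and 0.153 for Acly, -0.543 and 0.096 for B2m, -0.940 and 0.136 for BC147527, -0.280 and 0.025 for Cd8a, -0.249 and 0.968 for Dapl1, -0.645 and 0.308 for Ifi27l2a, -0.018 and 0.359 for Ifitm1, -0.963 and 0.136 for Igfbp4, -0.006 and 0.570 for Ltb, -0.172 and 0.097 for Nr4a1, -0.169 and 0.039 for Odc1, -0.367 and 0.082 for Rplp1, -0.177 and 0.198 for Rps24, -0.025 and 0.301 for Stat6, -0.134 and 0.096 for Tbx21, and -0.052 and 0.039 for Zfp36l1. With 1 library per condition and time, each culture's own step has no error estimate.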

Other observations

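Some gene lists outside the main account held single calls from 4 to 8 h. Pou2af1, the coactivator gene of octamer factors known from B cells, had 12.3, 17.1 and 16.3 RPKM at 4 h and 25, 42.8 and 52.8 RPKM at 8 h in Th0, Th1 and Th2. All 8 h libraries lay above all 4 h libraries, and it rose by 1.32 on the log2 scale (standard error 0.17, adjusted p = 0.00124, limma). It was the single rise among 13 measured B cell markers, whose median was -0.39; the 15 markers of the list summed to 157, 133 and 163 RPKM at 4 h and 153, 144 and 160 RPKM at 8 h, with Cd37 the highest. Ikzf4, the gene of the factor Eos of regulatory T cells, went from 22.2, 17.6 and 16.4 RPKM to 11.6, 8.58 and 6.99 RPKM, against 4.93 RPKM at rest. It fell by 1.03 (standard error 0.16, adjusted p = 0.00218, limma), and was under 2-fold without Th2 (-0.95), with median-of-ratios scaling (-0.96), under quantile normalization (-0.99) and with a pseudocount of 1 (-0.99). The other 8 regulatory T cell genes were not called, and the median of the list was 0.23, -0.07 without Th0, 0.07 without Th1 and 0.11 without Th2. Foxp3 had 38.4, 32.6 and 37.3 RPKM and then 33.2, 29.3 and 27.3 RPKM (log2 change -0.27, adjusted p = 0.211, limma). Zfp296 was the single rise among 269 numbered zinc finger genes (median -0.06, and 0.002 with median-of-ratios scaling), from 0.671, 0.556 and 1.7 RPKM to 1.68, 2.4 and 4.26 RPKM. Its log2 change was 1.16 (adjusted p = 0.00533, limma), was under 2-fold with a pseudocount of 1 (0.92), and lost the call without Th1. Of the zinc finger genes, 3 rose and 1 fell without Th0, and 3 rose under quantile normalization.

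In the lists that follow, limma called 0 genes. Among 14 STAT5 targets and SOCS inhibitors the median was -0.31, with 7 at an unadjusted p under 0.05. Without Th0 or without Th1 1 of them fell. Stat3, named as an abundant member, had 221.0, 213.1 and 139.6 RPKM at 4 h and 132.5, 106.7 and 76.6 RPKM at 8 h (log2 change -0.86, adjusted p = 0.00359, limma). Among 18 genes of the Bcl2 family and death receptors the median was -0.23 (-0.08 without Th2), with 6 at an unadjusted p under 0.05; 1 rose without Th0, without Th2 or with median-of-ratios scaling. Bax had 109.1, 102.0 and 125.9 RPKM and then 102.2, 139.7 and 187.8 RPKM (log2 change 0.31, adjusted p = 0.201, limma). The 16 RNA-binding regulators of mRNA decay had a median of -0.09 and the 16 SR proteins and CLK kinases of 0.16, with 5 and 6 at an unadjusted p under 0.05. The 10 granzyme and granule genes had a median of 0.13 (0.07 without Th0 and 0.33 without Th2), with 2 at an unadjusted p under 0.05. Without Th0, 1 of them rose and 1 fell. Gzma had 49.9, 146.6 and 120.8 RPKM and then 60.9, 76.1 and 51.6 RPKM, and was called without Th0 at -1.08. Markers of NK cells had a median of -0.50 (-0.12 without Th2) over 9 genes (5 at an unadjusted p under 0.05; 1 fell without Th0), and summed to 143, 257 and 231 RPKM at 4 h and 154, 159 and 107 RPKM at 8 h. Markers of dendritic cells (-0.17, 6 genes, 1 at an unadjusted p under 0.05), neutrophils (-0.28, 5 genes, 0), platelets (-0.49, 5 genes, 2) and CD8 T cells (-0.31, 2 genes, 1) had medians below 0. Without Th1, 1 platelet marker fell and the neutrophil median was -0.10. The neutrophil median was -0.47 without Th0. Without Th2 the platelet median was -0.20 and that of CD8 T cells -0.135. Under quantile normalization the dendritic cell median was -0.02 and the neutrophil median -0.14.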
